A study of Sus scrofa with 16 samples.

Results

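Of the 16 myocardial samples of a study of cardiac ischemia/reperfusion (IR) injury in swine, 8 came from the left ventricle (LV) of the 4 sham-operated pigs, and these 8 samples are described here. They were chosen by their labels for surgery and location. Each sham pig gave 1 sample labelled scar and 1 labelled border, and the artery of a sham heart was not occluded, so both labels name places in muscle without an infarct. The scar location was cut at the site of the coronary suture and the border location beside it. The sham pigs were pigs 4 and 5, both female, and pigs 12 and 13, both male, all White Yorkshire-Landrace farm pigs operated on at 30 days of age, with hearts collected 4 weeks later. Sham surgery opened the chest and passed a suture around the left anterior descending artery that was not tightened, and the suture stayed in place, so these hearts are operated controls, and injury from the surgery itself at the suture site is not excluded. The other 8 samples, used only for comparison, came from pigs 2 and 14 (female) and 9 and 11 (male), in which the same artery was occluded for 1 h. By the methods, IR pigs also received heparin, and animals with arrhythmia were treated for it, so these cannot be told apart from ischemia. Sex cannot be told apart from the individual pig in groups of this size.

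The LV wall is built mainly of cardiomyocytes, which carry most of its RNA, with endothelial cells, fibroblasts, pericytes, smooth muscle and resident leucocytes between them. Expression in a normal ventricle is not uniform. Ion channels, natriuretic peptides and developmental transcription factors differ between base and apex and between the inner and outer wall, so adjacent pieces of healthy muscle can differ in expression with no injury. In bulk RNA, fewer cells of a type and less RNA per cell cannot be told apart.

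Estimated counts summed to between 19701606 and 27088652 per sham sample, and 3 counts then correspond to between 0.111 and 0.152 CPM, the count scaled to a common library size. All CPM values below also carry TMM, a correction for library composition. The 2 locations of 1 pig were more alike than 2 pigs at the same location. Pearson correlations of log2 CPM across genes were 0.985 to 0.992 within a pig and 0.963 to 0.982 between pigs, and the median absolute log2 difference was 0.124 to 0.226 within a pig and 0.170 to 0.291 between pigs. The Y-linked genes *DDX3Y* and *EIF1AY* were at most 1.03 CPM in both females and at least 28.4 CPM in both males, as the sex labels state.

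The RNA of sham LV was that of working ventricular muscle. TPM values, which are scaled for transcript length and so allow levels of different genes to be compared, were, among genes with a symbol, high for the mitochondrially encoded respiratory chain genes and for genes of the contractile apparatus. *COX1*, a subunit of cytochrome oxidase, averaged 59457 ± 6488 TPM over the 8 samples (SD) and *COX3* averaged 38657 ± 2593 TPM. The mitochondrially encoded genes together took between 14.4% and 19.97% of all counts.

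Among nuclear genes with a symbol, the highest TPM was that of *PLN*, the inhibitor of the sarcoplasmic calcium pump, at 20346 ± 10304 TPM. It had at most 17938 counts in a sample, against 198993 for *MYL3*, so its rank depends on the length scaling. The ventricular light chain *MYL3* was nearly as high in TPM and more even, at 20140 ± 1211 TPM. *TNNT2* averaged 11114 ± 2046 TPM, the slow myosin heavy chain *MYH7* averaged 7869 ± 1046 TPM, and *TNNI3*, the adult cardiac troponin I, averaged 7834 ± 862 TPM. The fetal counterpart of *TNNI3*, *TNNI1*, averaged 71.3 ± 51.4 TPM, and it is described below because it varied within hearts. Skeletal *ACTA1*, at 7118 ± 780 TPM, was measured above cardiac *ACTC1*, at 5341 ± 713 TPM, in 7 of the 8 samples. *MYH6*, *MYL7* and *MKI67* have no entry under these names and are not analysed here. A limit applies to every TPM value. A gene listed only as ENSSSCG00000032277 took between 14.04% and 24.2% of TPM but only 0.129% to 0.204% of counts, so it is scaled as a very short transcript and lowers the TPM of all other genes by an amount that differs between samples.

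Genes of other cell types were present at lower levels. The smooth muscle list had the widest range of these, 8465 to 38101 TPM, but most of that sum is *PLN*, which the cardiomyocyte list also holds. Summed over the list, endothelial markers measured 793 to 935 TPM, led by *PECAM1* at 147 ± 18.4 TPM, and pericyte markers 223 to 292 TPM. Fibroblast and matrix genes measured 3493 to 5407 TPM, with *COL3A1* at 856 ± 143 TPM and *COL1A1* at 204 ± 42.3 TPM. The lowest and the highest fibroblast and matrix sum were the border and the scar location of pig 4. Macrophage and dendritic cell genes measured 170 and 174 TPM in pig 5 and 259 to 344 TPM in the other 3 pigs. Lymphocyte genes measured 82.3 to 150 TPM.

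Markers of tissues that could have been cut along with the muscle were mostly low. The 10 lung markers summed to 3.14 to 4.74 TPM, with *SCGB1A1*, *SCGB3A2* and *NKX2-1* listed at 0. Of the skeletal muscle markers *MYOD1*, *PAX7* and *TNNT3* were listed at 0, and the list summed to 18.3 to 55.2 TPM, most of it *CASQ1* and *MYL1*. The adipocyte hormone *ADIPOQ* was at 0.0812 ± 0.0591 TPM, and *PLIN1* and *LEP* averaged 0.106 and 0.0145 TPM. The whole adipocyte list was not low, at 544 to 839 TPM. It was led by *LPL* at a mean of 440 TPM and by *FABP4*, also in the endothelial list, at 122 TPM. *WT1*, which marks epicardium and some vascular cells, was at 2.60 ± 0.55 TPM, and the mesothelial and epicardial list summed to 47.4 to 79.2 TPM. *CALB2*, *KRT7* and *BNC1* of that list were at or below 0.0142 TPM on average and *RSPO1* and *PLA2G2A* were listed at 0, while *EFEMP1* was at 12.3 TPM and *C3* at 13.6 TPM. *HBB*, the adult beta globin of red cells, averaged 285 ± 70.5 TPM.

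**Figure D1:**
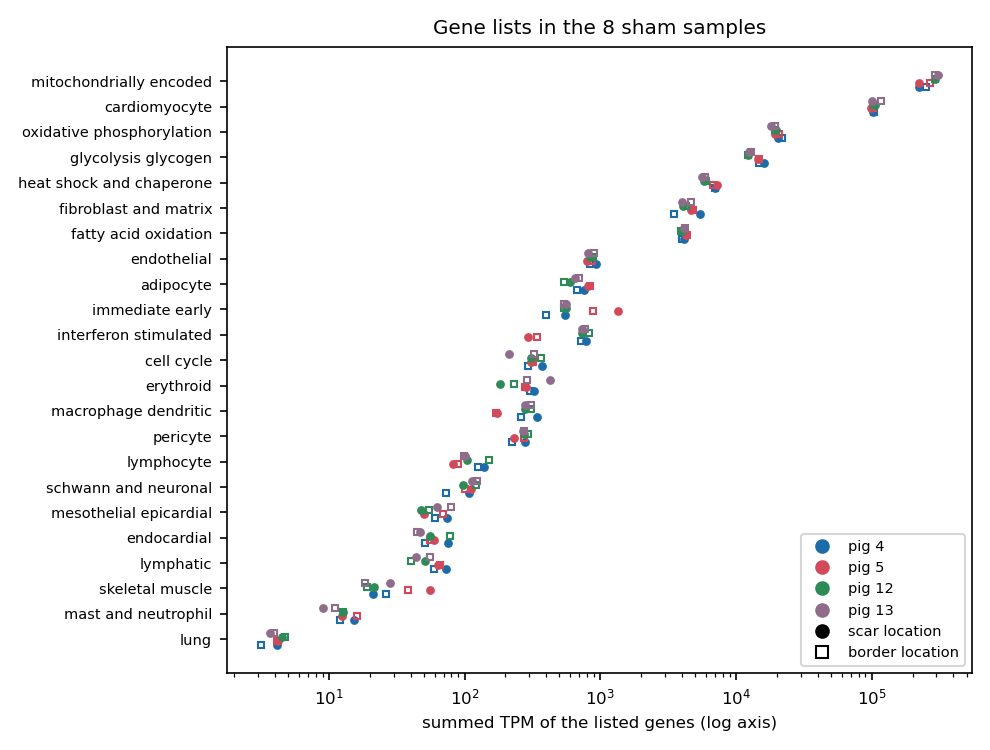
Summed TPM of the genes of each list (log axis) in each of the 8 sham samples, coloured by pig, with filled circles for the scar location and open squares for the border location. The cardiomyocyte list lies between 98850 and 116459 TPM in all samples, and pig 5 lies apart from the other pigs in the interferon stimulated, immediate early and macrophage lists.

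The main question was whether the 2 locations of an LV without an infarct differ. With the pig as a block, 0 of 13803 genes passed an adjusted p of 0.05 and a fold change of 2 in edgeR's quasi-likelihood test, a background of 0%. The smallest adjusted p was 0.285. At an unadjusted p of 0.05, 370 genes (2.68% of those tested) were higher and 289 (2.09%) lower at the scar location. With a fold change of 2 as well, 11 genes (0.0797%) were higher and 17 (0.123%) lower. DESeq2 on the same design called 2 genes by the adjusted rule, *ANGPTL1* and *PRLR*. The median log2 fold change over all genes was -0.01, which TMM scaling places near 0 by construction.

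A direction shared by all 4 pigs is the least that a consistent location difference requires. It was met by 1855 genes (13.4% of those tested), near the 1 in 8 that random signs would give. Of these, 955 (6.92% of those tested) were higher and 900 (6.52%) lower at the scar location in all 4 pairs. The split depends on the scaling: with TPM in place of TMM-scaled CPM, 548 were higher and 858 lower. In only 7 genes did every pair differ by 0.5 or more on the log2 scale, 3 of them higher and 4 lower. For a single gene, an exact two-sided sign-flip test of 4 pairs cannot give a p below 1 in 8, so it cannot pass the threshold. Pig 12 was most often the exception, with 2195 genes in which the other 3 pigs shared a direction and pig 12 had the opposite one, against 1377 to 1746 genes for each other pig.

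The genes named next had a symbol, a mean of 1 CPM or more, a shared direction in all 4 pairs and an unadjusted p of 0.05 or below. These conditions were met by 242 higher and 192 lower genes, and the genes named come from the 12 of each with the largest fold change. Since the direction and the p were used to choose them, their values are a description of these 4 hearts. None passed the adjusted threshold of the edgeR fit.

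*ANGPTL1*, a secreted angiopoietin-like protein, had the highest fold change. Its border values were 2.19, 1.90, 1.95 and 1.85 CPM in pigs 4, 5, 12 and 13, and its scar values were 4.13, 5.20, 5.62 and 6.61 CPM. Every scar value was above every border value, and the border values of the 4 pigs were almost equal. The log2 fold change was 1.44 ± 0.18 (SE), a 2.71-fold difference, with an adjusted p of 0.285 in edgeR. The adjusted p was 0.000274 in DESeq2 and 0.0286 in edgeR without the filter on low counts, so the call depends on both settings.

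*ATF3*, a stress-induced transcription factor, had the highest mean CPM of the higher genes. It measured 17.9, 139, 48.96 and 35.6 CPM at the border and 35.8, 417, 54.7 and 77.3 CPM at the scar location of pigs 4, 5, 12 and 13. The ranges of the locations overlapped, pig 5 was far above the other pigs at both, and pig 12 differed little. The log2 fold change was 0.98 ± 0.19 (adjusted p = 0.804, edgeR), and without pig 12 it was 1.25. *PHF23*, a chromatin reader, measured 2.93 to 9.04 CPM at the border and 5.08 to 12.7 CPM at the scar location, with a log2 fold change of 0.79 ± 0.14 (adjusted p = 0.749, edgeR).

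*SLC6A4*, the serotonin transporter, measured 10.8, 19.3, 13.8 and 20.9 CPM at the border and 20.5, 19.4, 20.2 and 40.6 CPM at the scar location. Pig 5 was almost equal at both locations, with a log2 difference of 0.01, and pigs 4 and 13 differed by 0.92 and 0.96. *KCND2*, a pore subunit of the transient outward potassium current, was at 0.345 to 2.00 CPM at the border and 0.548 to 2.27 CPM at the scar location. *THRSP*, a regulator of lipogenesis, ranged from 0.135 to 4.03 CPM at the border and from 0.416 to 4.44 CPM at the scar location, with pig 5 lowest at both. Its border value in pig 5 is under the 0.149 CPM that 3 counts give there, so that pair cannot be compared at this depth. *NAIF1*, *C11orf42*, *DGKI* and *RGS9BP* had log2 fold changes between 0.62 and 0.72 and were at or below 4.32 CPM in every sample.

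Among the lower genes, *PRLR*, the prolactin receptor, had the highest mean level. It measured 8.04, 14.5, 4.00 and 3.86 CPM at the border and 4.47, 9.13, 1.12 and 2.06 CPM at the scar location of pigs 4, 5, 12 and 13. The locations overlapped between pigs, since the females were higher than the males, yet within each pig the scar value was lower by 0.66 to 1.76 on the log2 scale. The log2 fold change was -0.99 ± 0.18, with adjusted p = 0.749 in edgeR and 0.0409 in DESeq2. *EPOR*, the erythropoietin receptor, belongs to the same cytokine receptor family and measured 2.40, 2.10, 2.39 and 1.89 CPM at the border and 1.37, 0.670, 0.817 and 1.82 CPM at the scar location. Pig 13 was almost equal at both locations, and the log2 fold change was -0.97 ± 0.30 (adjusted p = 0.931, edgeR).

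*CISH*, a feedback inhibitor induced by such receptors through STAT5, was looked up after the values of *PRLR* were seen. It measured 165, 162, 134 and 97.8 CPM at the border and 91.7, 115, 123 and 77.3 CPM at the scar location, with a log2 fold change of -0.45 ± 0.11 (adjusted p = 0.931, edgeR). Its direction was the same in all 4 pairs. The kinase and transcription factors of this pathway were not lower in the fit. Their log2 fold changes were 0.08 ± 0.10 for *JAK2*, 0.08 ± 0.09 for *STAT5A* and 0.09 ± 0.07 for *STAT5B*. Activity of the pathway was not measured.

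*LRP1B*, a giant endocytic receptor, had the lowest fold change. It measured 0.543, 1.44, 6.14 and 0.755 CPM at the border and 0.274, 0.393, 2.42 and 0.237 CPM at the scar location, with pig 12 far above the others at both. The log2 fold change was -1.46 ± 0.27 (adjusted p = 0.749, edgeR). *HS3ST5*, a heparan sulfate sulfotransferase, measured 1.46 to 2.52 CPM at the border and 0.505 to 1.37 CPM at the scar location, so the locations did not overlap. *COL28A1*, a minor collagen, measured 0.823 to 2.76 CPM at the border and 0.393 to 1.10 CPM at the scar location. *SELP*, the endothelial and platelet adhesion molecule P-selectin, measured 2.81, 1.34, 1.46 and 3.06 CPM at the border and 2.56, 0.699, 0.649 and 0.910 CPM at the scar location, and pig 4 differed least. *SRRM4* measured 1.70 to 2.54 CPM at the border and 0.989 to 1.35 CPM at the scar location, again without overlap. The other 5 (*ZNF502*, *GTSF1*, *OPCML*, *TMEM117* and *CTXN3*) had log2 fold changes between -1.07 and -0.80, and *ZNF502* had no reads at the scar location of pig 5. The lowest border value of *OPCML* was 0.146 CPM, under the 0.152 CPM limit, so that pair cannot be compared at this depth.

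*XDH*, xanthine oxidoreductase of purine breakdown, is not among the 12 lower genes and was singled out after its values were seen because its level was far above theirs. It measured 239, 171, 194 and 64.99 CPM at the border and 98.1, 109, 119 and 53.8 CPM at the scar location. In pigs 4, 5 and 12 every scar value was below every border value, and pig 13 was lowest at both locations. The log2 fold change was -0.73 ± 0.14, with adjusted p = 0.749 in edgeR and 0.000274 in DESeq2.

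**Figure D2:**
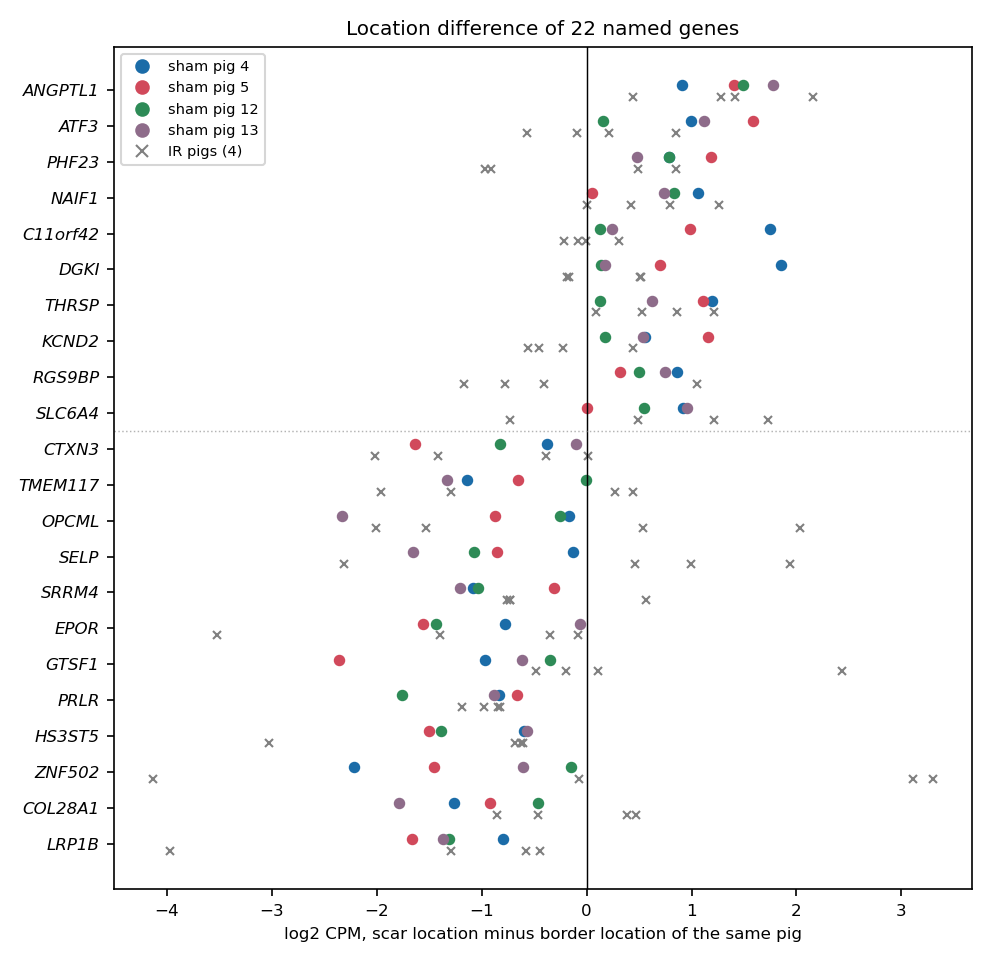
Difference in log2 CPM between the scar and the border location of the same pig for 10 higher and 12 lower genes, with a coloured circle for each sham pig and a grey cross for each of the 4 IR pigs. All circles of a gene lie on 1 side of 0 by the way the genes were chosen, and the crosses of *ANGPTL1*, *PRLR*, *HS3ST5* and *LRP1B* lie on the same side as the circles.

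Described by list, cell cycle genes had mostly higher values at the border location. Of 40 tested, 38 had a negative log2 fold change, 9 were lower in all 4 pairs (22.5%, against 6.52% of all genes) and 0 were higher. At the unadjusted p, 7 were lower (2.09% of all genes were) and 0 higher, and the median log2 fold change of the list was -0.17. *BIRC5*, survivin of the chromosomal passenger complex, measured 18.3, 12.8, 11.8 and 9.94 CPM at the border and 13.4, 11.1, 9.64 and 6.41 CPM at the scar location (log2 fold change -0.39 ± 0.10). *NDC80* and *NUF2* of the kinetochore had log2 fold changes of -0.32 ± 0.12 and -0.40 ± 0.16, and *CCNE2*, a cyclin of S phase entry, of -0.40 ± 0.17. *TOP2A*, which untangles replicated DNA, was lower in all 4 pairs but only by 0.02 and 0.05 in pigs 4 and 5, against 0.59 in pig 13. In TPM only 1 cell cycle gene was lower in all 4 pairs, and without pig 13 the median of the list was -0.06.

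The smooth muscle list held 12 tested genes, of which 11 had a positive fold change and 3 were higher in all 4 pairs (6.92% of all genes were), with a median of 0.18. The list includes *PLN* and *CASQ2*, which the cardiomyocyte list also holds. *CASQ2* (0.10) is among the 11 positive genes and *PLN* (-0.11) is not, and neither is among the 3. The median of the list was 0.07 without pig 12 and 0.34 without pig 13. *MYOCD*, the coactivator of smooth muscle and cardiac genes, measured 31.0, 43.8, 31.1 and 27.5 CPM at the border and 46.4, 50.3, 37.7 and 31.7 CPM at the scar location (log2 fold change 0.32 ± 0.09, adjusted p = 0.931, edgeR). *SYNPO2*, an actin-bundling protein, had 0.18 ± 0.07. The contractile genes *MYH11* and *ACTA2* did not share the direction: in pig 12 *MYH11* was 37.4 CPM at the border and 115 CPM at the scar location, and in pig 13 it was 69.4 and 40.7 CPM.

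Of 46 fibroblast and matrix genes, 33 had a positive fold change, 3 were higher in all 4 pairs (6.52%, near the 6.92% of all genes) and 0 were lower. The 3 were *COL12A1*, *SCARA5* and *LOXL2*. *COL12A1*, a collagen that binds fibril surfaces, measured 16.7, 34.7, 27.9 and 45.3 CPM at the border and 33.5, 45.3, 45.2 and 48.1 CPM at the scar location (log2 fold change 0.53 ± 0.13, adjusted p = 0.931, edgeR). The list rested on pig 4, since its median was 0.09 with all pigs and -0.03 without pig 4. The main fibrillar collagens were mixed in direction, as with *COL1A2* at 850 and 1194 CPM in pig 4 but 977 and 903 CPM in pig 12, border first.

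Immediate early genes were higher at the scar location in 20 of 23 by sign, 3 of them in all 4 pairs (6.92% of all genes were) and 6 at the unadjusted p (2.68% of all genes were), against 0 lower. Besides *ATF3*, these 3 were *DUSP1* and *NR4A3*. *DUSP1*, a phosphatase that shuts off MAP kinases, measured 31.2, 79.7, 36.4 and 52.0 CPM at the border and 39.7, 97.0, 46.1 and 62.3 CPM at the scar location. The difference was alike in the 4 pigs, from 0.26 to 0.35 on the log2 scale (log2 fold change 0.31 ± 0.07, adjusted p = 0.931, edgeR). *NR4A3*, an orphan nuclear receptor, differed by 0.11 to 0.78. Without pig 5, the pig with the highest levels of this list, its median was 0.05 instead of 0.15. Of the stress hormone response genes, 4 of 17 were higher in all 4 pairs (6.92% of all genes were) and 0 lower, among them *ZBTB16*, a glucocorticoid-induced zinc finger gene (0.36 ± 0.07, from 0.27 to 0.46 in the 4 pigs).

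Ion channel genes were mixed in direction. *KCNA5*, which carries the ultrarapid potassium current, was lower at the scar location of all pigs, at 81.8, 72.3, 45.8 and 39.3 CPM at the border and 45.3, 59.9, 41.8 and 30.7 CPM at the scar location (log2 fold change -0.40 ± 0.11, adjusted p = 0.931, edgeR). *CACNA1C*, the pore of the L-type calcium channel, and *KCNH2*, the pore of the rapid delayed rectifier, were higher in all 4 pairs, with log2 fold changes of 0.22 ± 0.08 and 0.21 ± 0.09. With 1 location term for all 8 pigs, *KCNH2* was at -0.072. Of 19 tested, 3 were higher (15.8%) and 1 lower (5.26%) in all 4 pairs, where all genes gave 6.92% and 6.52%. Among cardiac transcription factors 3 of 25 (12%) were higher and 2 (8%) lower, with *TBX5* at 0.19 ± 0.07 and *GATA6* at -0.23 ± 0.08.

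Of the clock genes, 4 of 19 were higher and 1 lower in all 4 pairs, of the hypoxia response genes 3 of 17 were higher and 0 lower, and of the interferon-stimulated genes 5 of 33 were lower and 0 higher, where all genes gave 6.92% and 6.52%. In TPM, the genes of a shared direction numbered 3 in the clock list, 0 in the hypoxia list and 3 in the interferon list. Of 28 cardiomyocyte genes, 1 was higher and 0 lower in all 4 pairs, with a median of -0.01. Of 47 nuclear oxidative phosphorylation genes, 1 was higher and 1 lower, although 40 had a negative sign and the median was -0.08, which turned to 0.02 without pig 4. In TPM, 8 of the 47 shared a direction in all 4 pairs. Of the 13 mitochondrially encoded genes 0 shared a direction. Of 23 endothelial genes, 1 was higher and 3 lower in all 4 pairs, with the venous chemokine receptor *ACKR1* at -0.65 ± 0.24 (0.042 with 1 location term for all 8 pigs) and *ICAM2* at -0.21 ± 0.08. Adipocyte genes were higher in all 4 pairs in 4 of 16 and lower in 0, but *ADIPOQ* was too low to be tested. The 4 include *THRSP*, whose pair in pig 5 was too low to compare.

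**Figure D3:**
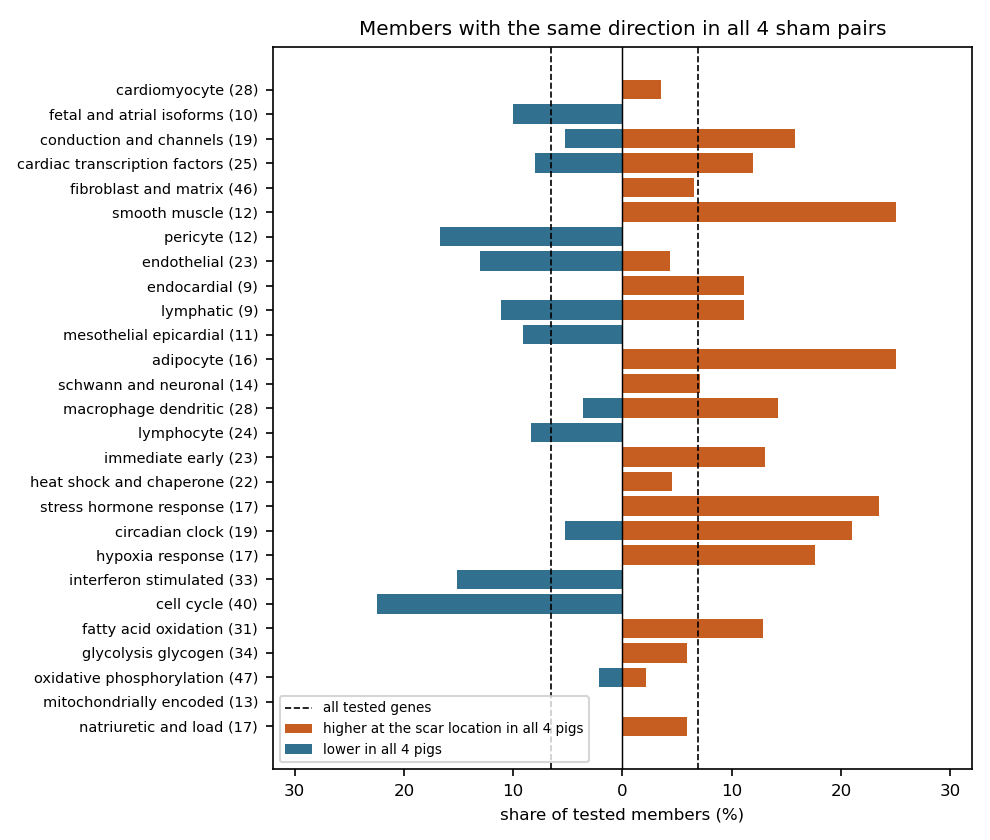
Share of the tested members of each list with 9 or more of them (number in brackets) that were higher (right) or lower (left) at the scar location in all 4 sham pairs, with dashed lines at 6.92% and 6.52%, the shares of all tested genes. The cell cycle list has the largest lower share, 22.5%, and the smooth muscle and adipocyte lists the largest higher share, 25%.

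Some genes differed strongly inside a sham heart but in opposite directions in different pigs. They were found after the values were seen, as those with the widest spread of the 4 differences, a rule that favours opposite directions. The natriuretic peptide gene *NPPB* measured 4.88, 4.89, 234 and 15.1 CPM at the border and 19.2, 2.71, 5.52 and 109 CPM at the scar location of pigs 4, 5, 12 and 13. It was therefore high at the border of pig 12, at the scar location of pig 13 and, less so, at the scar location of pig 4. *NPPA*, the atrial natriuretic peptide, measured 14.01, 34.1, 110 and 24.1 CPM at the border and 35.9, 12.8, 0.577 and 48.8 CPM at the scar location. In pig 12 its 2 adjacent pieces thus differed from 110 to 0.577 CPM.

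Other genes peaked in 1 or both of the border of pig 12 and the scar location of pig 13. *MYL4*, the atrial light chain, was at 38.3 CPM at the border of pig 12 and 2.20 CPM at its scar location, and between 4.48 and 13.1 CPM in the other 6 samples. *SCN3B*, a sodium channel subunit, was at 68.6 CPM at the border of pig 12 and 56.6 CPM at the scar location of pig 13, and between 3.59 and 7.55 CPM in the other 6. *PDYN*, which encodes the opioid precursor prodynorphin, was at 56.5 and 27.5 CPM in those same 2 samples, at 11 CPM at the scar location of pig 4 and at or below 5.25 CPM elsewhere. *RGS6*, a regulator of G protein signaling, was at 115 and 74.5 CPM in the same 2 samples and between 2.91 and 28.4 CPM elsewhere. The genes did not share 1 pattern in the other samples. They have in common that the scar minus border difference of pig 12 has the opposite sign to those of pigs 4 and 13.

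The Iroquois factor *IRX5*, which is graded across the ventricular wall in the mouse, measured 3.80, 15.5, 27.3 and 6.48 CPM at the border and 17.3, 23.4, 14.3 and 23.9 CPM at the scar location. It was higher at the scar location in pigs 4, 5 and 13 and lower in pig 12. Its log2 fold change was 0.84 ± 0.42 with an adjusted p of 0.931 in edgeR. With 1 RUVg factor, an estimate of unwanted variation, added to the edgeR fit it was 1.00 ± 0.09 with an adjusted p of 0.0158. That is just under the fold threshold, and no other gene passed the adjusted p there. The factor was built on the 5000 genes with the largest p in the same location test, so this p is not independent evidence. *FRAS1*, an extracellular matrix protein, had log2 differences of 1.42, 1.39, -1.32 and 1.51 in pigs 4, 5, 12 and 13, and *PDLIM3*, a Z-disc protein, of 1.12, 0.84, -0.89 and 0.88. *TNNI1* followed them, with 0.98, 0.72, -1.33 and 0.77. Each pig was left out in turn, and the values without pig 12 are given because it ran opposite, so they are a description only. With all pigs *FRAS1* had a log2 fold change of 0.76 ± 0.42 and *TNNI1* of 0.29 ± 0.33, and without pig 12 they had 1.45 ± 0.09 and 0.84 ± 0.09.

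*KCNJ5*, a subunit of the acetylcholine-gated potassium channel, ran the other way. It measured 301, 193, 14.6 and 182 CPM at the border and 113, 61.6, 49.6 and 13.3 CPM at the scar location, so that pig 12 was again the exception. *ADAMTS20*, a secreted metalloprotease, measured 14.6, 5.87, 0.780 and 7.46 CPM at the border and 2.69, 0.262, 1.59 and 0.633 CPM at the scar location. Its log2 fold change was -2.31 ± 0.61 with all pigs and -3.14 ± 0.30 without pig 12. The methods describe histology sections that included the inner and the outer wall, with the RNA pieces taken in parallel. The depth in the wall of each RNA piece is not given in the sources used here. The cardiomyocyte list summed to 104712 and 104901 TPM at the border and scar location of pig 12. *PLN*, with a mean of 20346 TPM over the 8 samples, made up part of such sums and varied between samples. *NPPB* differed between the pieces of pig 12 by -5.39 on the log2 scale, scar minus border, and the cause was not tested.

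**Figure D4:**
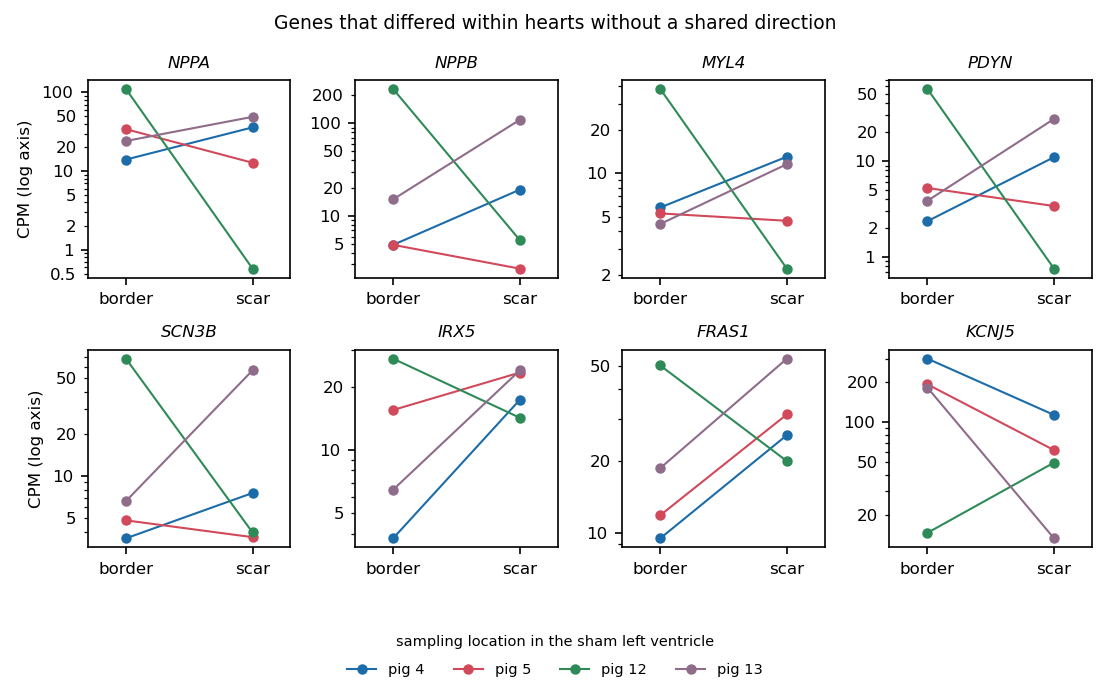
CPM (log axis) at the border and scar location of each sham heart for 8 genes, with a line joining the 2 samples of a pig. The line of pig 12 runs against those of pigs 4 and 13 in all 8 panels.

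Many genes differed between the sham animals. With location in the model, 3224 genes (23.4%) passed an adjusted p of 0.05 for a difference between the 4 pigs in edgeR's test, and 5507 did so unadjusted. The error of this test is the difference between 2 pieces of 1 heart, so it says that hearts differed beyond the spread within them, and handling of each heart cannot be told apart from the animal. With the genes filtered anew, the count was 1080 without pig 5 and 1802 without pig 13.

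Of 33 interferon-stimulated genes tested, 32 were called, against 23.4% of all genes, and those named here were lowest in pig 5. *RSAD2*, the antiviral protein viperin, measured 10.5 and 11.2 CPM at the border and scar location of pig 5 and between 47.8 and 71.1 CPM in the other 6 samples (adjusted p = 9.82e-06, edgeR). *IFI6* measured 45.2 and 41.1 CPM in pig 5 and 124 to 164 CPM elsewhere. *CXCL9*, the interferon gamma-induced chemokine, measured 1.08 and 0.699 CPM in pig 5, 7.55 and 9.50 CPM in pig 13 and 16.6 to 21.6 CPM in pigs 4 and 12. Without pig 5, 8 of the 33 were called, when 1073 of the same 13803 genes were called. In the IR hearts *ISG15* was at 698 and 441 CPM in pig 11 and between 21.3 and 37.6 CPM in the other 3 IR pigs, against 7.47 to 37.5 CPM in sham.

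Leucocyte genes followed in part. Macrophage and dendritic cell genes were called in 20 of 28 and lymphocyte genes in 16 of 24, against 23.4% of all genes. Without pig 5 the counts were 5 and 1, when calls over the same 13803 genes also dropped from 3224 to 1073. The pan-leucocyte gene *PTPRC* measured 4.06 and 3.13 TPM in pig 5, 6.785 and 7.24 TPM in pig 13, and 9.11 to 14.6 TPM in pigs 4 and 12. The T cell receptor subunit *CD3E* measured 0.772 and 0.655 CPM in pig 5 and between 2.57 and 7.03 CPM elsewhere (adjusted p = 0.00104, edgeR). The macrophage scavenger receptor *CD163* had another order, at 26.9 to 38.3 CPM in pigs 4 and 5 and 43.3 to 60.2 CPM in pigs 12 and 13. The median location differences were 0.00 for macrophage genes and -0.10 for lymphocyte genes, and the latter was 0.10 without pig 12 and -0.23 without pig 13. In all 4 pairs, 4 of 28 macrophage and dendritic cell genes were higher and 1 lower. Of 24 lymphocyte genes, 0 were higher and 2 lower, where all genes gave 6.92% and 6.52%.

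Some genes were highest in pig 5. *NR4A3* measured 86.6 and 149 CPM in pig 5, 26.3 and 33.5 CPM in pig 4 and 9.75 to 14.6 CPM in pigs 12 and 13. *PDK4*, which restrains glucose oxidation and rises on fasting, measured 79.4 and 114 CPM in pig 5, 31.3 to 33.7 CPM in pigs 4 and 12, and 11.6 and 16.3 CPM in pig 13 (adjusted p = 4.73e-05, edgeR). Of the clock genes 13 of 19 were called, against 23.4% of all genes, and 5 without pig 5, when 1073 of the 13803 genes were called. *DBP* measured 11.2 and 11.99 CPM in pig 5 and 3.19 to 6.61 CPM elsewhere, and its activator *ARNTL* measured 1.49 and 1.66 CPM in pig 5 and 3.07 to 6.16 CPM elsewhere, the opposite order. *A2M*, a protease inhibitor, was at 95.2 and 91.2 CPM in pig 5, 46.3 to 53.6 CPM in pigs 12 and 13 and 14.7 and 12.7 CPM in pig 4.

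Some genes took separate levels in different animals whatever the location. *ACSM5*, a mitochondrial acyl-CoA synthetase, was at 36.3 to 50.0 CPM in pigs 4 and 5 and 2.63 to 3.59 CPM in pigs 12 and 13 (adjusted p = 3.34e-07, edgeR). Although this order matches sex among the sham pigs, it did not among the IR pigs, where female pig 2 was at 2.96 and 2.84 CPM and the other 3 were between 17.1 and 27.9 CPM. *LIPM*, a lipase gene, had no reads in either sample of pigs 12 and 13 and 5.59 to 8.08 CPM in pigs 4 and 5. *SMYD3*, a histone methyltransferase, was at 72.5 and 80.7 CPM in pig 12, 26.2 and 29.9 CPM in pig 13 and 7.94 to 12.2 CPM in pigs 4 and 5. *LYPLAL1* was at 0.567 and 0.524 CPM in pig 5 and 5.79 to 8.34 CPM in the others. *ACSS3*, a mitochondrial propionyl-CoA synthetase, was at 267 and 236 CPM in pig 13 and 68.4 to 108 CPM in the other 3 pigs.

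Of the 28 cardiomyocyte genes, 6 (21.4%) were called between pigs, near the 23.4% of all genes, and 1 was called without pig 5. Among the most abundant of them, *PLN*, *TNNT2* and *TPM1* were called, and *MYL3*, *TNNC1*, *MYH7*, *TNNI3* and *ACTC1* were not. *PLN* measured 7629 and 12301 TPM in pig 4, 15307 and 10752 TPM in pig 5, 26010 and 27104 TPM in pig 12 and 37209 and 26452 TPM in pig 13, border first (adjusted p = 0.0013, edgeR). The males were above the females at both locations, also in CPM, with 612 to 792 against 237 to 397 CPM. In the IR hearts, whose CPM were scaled separately, *PLN* was 479 and 508 CPM in female pig 2, 767 and 688.5 CPM in female pig 14, and between 369 and 700 CPM in the males, so the ranges of the sexes overlapped there. *TNNT2* ran the other way, at 12600 to 13823 TPM in the females and 8379 to 9845 TPM in the males (adjusted p = 0.0395, edgeR).

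**Figure D5:**
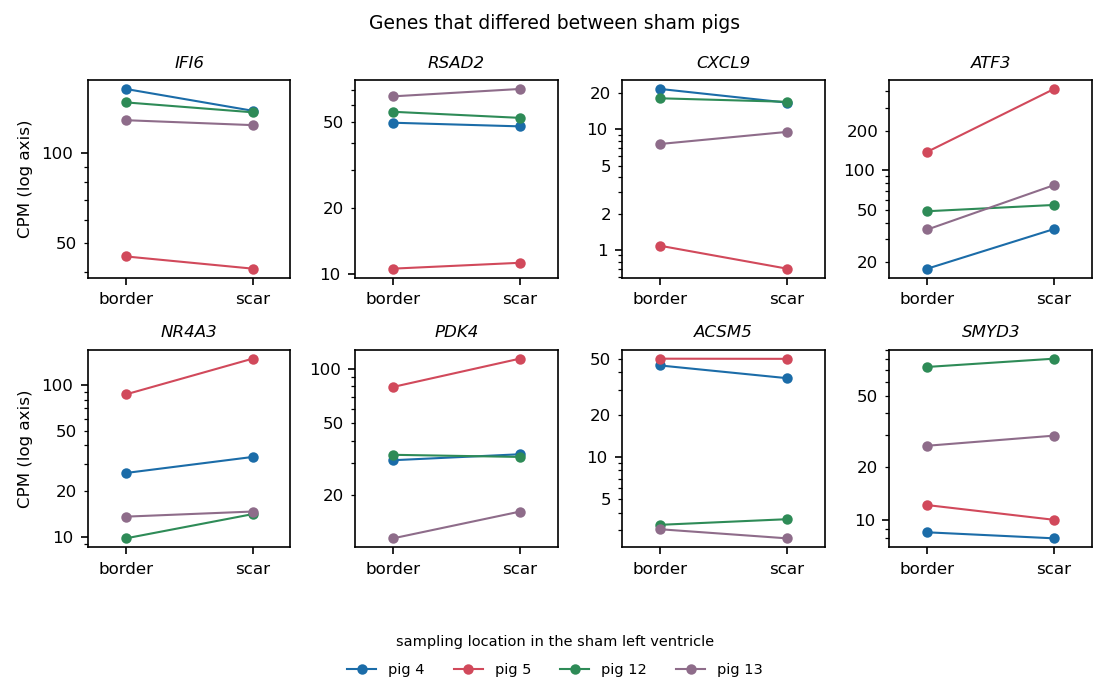
CPM (log axis) at the border and scar location of each sham heart for 8 genes that differed between pigs, with a line joining the 2 samples of a pig. Pig 5 lies below the other pigs for *IFI6*, *RSAD2* and *CXCL9* and above them for *ATF3*, *NR4A3* and *PDK4*.

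The last comparison was with the IR hearts. By the methods, their scar piece held scar tissue together with muscle beside it. The difference of the location effect, IR minus sham, passed the adjusted threshold in 0 of 14278 genes (0%) by edgeR, with a smallest adjusted p of 0.702, and 217 genes had an unadjusted p of 0.05 or below with a fold change of 2. DESeq2 also called 0. A location difference shared by all 4 IR pairs was found in 1449 genes higher (10.5%) and 1434 lower (10.4%), against 6.92% and 6.52% in sham. Of the 955 genes higher in all sham pairs, 131 (13.7%) were higher and 56 (5.86%) lower in all IR pairs. Of the 900 lower, 131 (14.6%) were lower and 70 (7.78%) higher. As a share of the IR genes, these shared genes were 9.04% of those higher and 9.14% of those lower. The 2 groups have no sample in common.

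Of the 12 higher genes 5 were also higher in all IR pairs, among them *ANGPTL1*, *NAIF1* and *THRSP*, although the sham pair of *THRSP* in pig 5 was too low to compare. Of the 12 lower genes 4 were lower in all IR pairs (*LRP1B*, *HS3ST5*, *PRLR* and *EPOR*). The fitted sign in IR was that of sham in 8 of the 12 higher and 8 of the 12 lower genes. *ANGPTL1* had a log2 fold change of 1.42 ± 0.29 in the IR hearts, next to 1.44 ± 0.18 in sham. *PRLR* had -0.98 ± 0.18 in IR next to -0.99 ± 0.18 in sham, and *XDH* -0.76 ± 0.14 next to -0.73 ± 0.14. For these 3 genes the fitted difference between sham locations was close to that between the scar and border locations of IR hearts. They are named because they shared a direction in all 8 pigs, so their agreement in sign follows from the choice. With 1 location term for all 8 pigs, a fit added after the values were seen, *ANGPTL1* and *PRLR* both had an adjusted p of 0.0486 in edgeR, and no other gene passed.

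*KCNA5* was lower in all 8 pigs, with log2 fold changes of -0.40 ± 0.11 in sham and -0.75 ± 0.15 in IR, and *CISH* with -0.45 ± 0.11 and -0.41 ± 0.13. *DUSP1* was higher in all 8 pigs, by 0.31 ± 0.07 in sham and 0.74 ± 0.22 in IR, as was *NFATC1*, a factor of endocardial cushion and valve development, by 0.30 ± 0.09 and 0.39 ± 0.10. These genes too are named for a direction shared by all 8 pigs, so their agreement is a description only. Cell cycle genes had negative medians in both groups, -0.17 in sham and -0.34 in IR, with 7 of 40 genes lower in all 4 IR pairs, against 10.4% of all genes. Fibroblast and matrix genes had a median of 0.73 in IR against 0.09 in sham. *COL12A1*, for example, had a log2 fold change of 1.71 ± 0.58 in IR and 0.53 ± 0.13 in sham, and the difference between them had an adjusted p of 0.702 in edgeR.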

How the data were processed

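Stranded, paired reads of polyadenylated RNA were made from LV tissue, with 1 scar and 1 border sample from each pig. The submitters' processing notes name Trimmomatic 0.33, HISAT2 2.0.5 and kallisto 0.43.1, and the genome build is not given in the sources used here. The authors deposited estimated counts per gene, not scaled for depth, in which kallisto divides reads among similar transcripts, so near-identical genes depend on that division. The authors also deposited TPM, used here for levels and as an alternative. The table has 22629 genes, 15095 with a symbol and 7534 with an Ensembl ID, of which 889 could be given a symbol.

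Counts were rounded and the 8 sham samples fitted in R 4.3.3 with edgeR 4.0.16 (quasi-likelihood, TMM, filterByExpr with a minimum count of 10) on pig and location. P-values were adjusted by Benjamini-Hochberg. A location call required adjusted p ≤ 0.05 together with a 2-fold change, and a call between pigs (F test of the pig terms) adjusted p ≤ 0.05. Differences within a pair are of log2 CPM with a prior count of 2. The 8 IR samples were scaled by themselves, and the surgery by location term was fitted over all 16. The pairing is by animal: deviations from the location means correlated at 0.453 to 0.738 within a pig and at most 0.310 with another.

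Named genes are from the 12 higher and 12 lower of the rule in the text (2 of the higher are not reported here), the 12 with the smallest p between pigs, the 15 with the highest TPM, 26 fixed genes and, from each list, the member with the highest TPM and that with the smallest p. The other genes named were chosen after their values were seen. Members and lists were chosen with earlier results of these data known. Scripts were tested on simulated data. Alternatives used DESeq2 1.42.0, limma 3.58.1 on log2(TPM + 1) and log2(TPM + 0.1), upper-quartile scaling, no filter, 1 RUVg factor, no pig block, all 16 samples, and each pig left out.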

Additional observations from a re-analysis of the deposited data

Results flagged for a closer look

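Of 162 sets of 4 values (1 measure at 1 location in the 4 sham pigs) that the text rests on, 22 held a value whose gap to the nearest other, as a share of the range, exceeded Dixon's critical value. Chance flags about 1 in 20 sets that were not chosen by their values, but many of these genes were chosen for a wide spread or a difference between pigs, so the count cannot be read against that rate. Pig 5 held 10 of the 22, pig 12 held 6, pig 13 held 4 and pig 4 held 2.

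In pig 5 at the scar location, *ATF3* was high at 417 CPM (others 35.8 to 77.3) and *NR4A3* at 149 CPM (others 14.1 to 33.5), and the immediate early list was high at 1359 TPM (others 546 to 560). *IFI6* was low there at 41.1 CPM (others 124 to 139), *ISG12(A)* at 32.8 CPM (others 111 to 127), the interferon-stimulated list at 294 TPM (others 733 to 787) and the pericyte list at 233 TPM (others 270 to 276). At the border location of pig 5, *ISG12(A)* was low at 34.3 CPM, *SRRM4* was low at 1.70 CPM (others 2.40 to 2.54) and *OPCML* high at 7.92 CPM (others 0.146 to 1.09).

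In pig 12, *LRP1B* was high at both locations, at 2.42 CPM at the scar location (others 0.237 to 0.393) and 6.14 CPM at the border (others 0.543 to 1.44). At the border of pig 12, *NPPB* was at 234 CPM (others 4.88 to 15.1), *MYL4* at 38.3 CPM (others 4.48 to 5.83), *PDYN* at 56.5 CPM (others 2.37 to 5.25) and *SCN3B* at 68.6 CPM (others 3.59 to 6.61).

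At the scar location of pig 13, *NPPB* was at 109 CPM (others 2.71 to 19.2), *SCN3B* at 56.6 CPM (others 3.66 to 7.555), *SLC6A4* at 40.6 CPM (others 19.4 to 20.5) and *ACSS3* at 236 CPM (others 68.4 to 89.3). In pig 4, *SELP* was at 2.56 CPM at the scar location (others 0.649 to 0.910) and *MYL2*, the ventricular regulatory light chain, at 5273 TPM at the border (others 2921 to 3306). Among the genes whose values are given in the text, none had all 4 sham pairs in 1 direction and all 4 IR pairs in the opposite one.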

How the results depend on the processing

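Genes called between locations numbered 0 in the reported fit, and 2 with DESeq2, 1 with no filter, 2 with 1 common location term over 16 samples (chosen after seeing the data) and 0 to 4 when a pig was left out, with the 4 without pig 12. The genes at the unadjusted p with a fold of 2 numbered 28, and 69 with no filter, 7 by limma on log2(TPM + 1), 53 with the common term, 659 with no fold threshold and 35 to 64 when a pig was left out, the 64 without pig 12. Without the pig as a block they numbered 14, and 0 were called by the adjusted p. Genes of 1 direction in all pairs numbered 1855, 7 with each pair at 0.5 or more, and 3232 to 4050 with 3 pairs, a weaker condition by construction. Genes called between pigs numbered 3224, 1060 by limma, and 1080 to 3418 when a pig was left out. The surgery by location term gave 0 calls in every setting tried, and the block changed no call there. With the common term *KCNH2* turned to -0.072, *MEIS1* to 0.29 and *ACKR1* to 0.042. Leaving out a pig gave *TNNI1* values from -0.00383 (without pig 4) to 0.84 (without pig 12). The cause was not tested except where a setting removes genes, samples or a threshold. At 3 counts per library, genes under 0.152 CPM could not be compared.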
